A study of Mus musculus with 12 samples.

Results

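The endoplasmic reticulum (ER) protein folding and unfolded protein response (UPR) genes are a list of 36 genes taken by name. All 36 were in the table of 12151 genes measured by bulk RNA-seq in 12 libraries of mouse pre-B leukemia cells. The cells came from bone marrow of mice 6 to 12 weeks old, carried Ctnnb1Ex3fl/+, and were transformed with BCR-ABL1, the oncogene of Philadelphia chromosome-positive leukemia. Exon 3 of Ctnnb1 holds the phosphorylation sites that mark β-catenin for degradation, and its excision by Cre leaves a stable protein from that allele. Cas9 with a non-targeting guide (sgNTC, called WT here) or with guides against Ikzf1 and Ikzf3 (sgIkzf1 Ikzf3, called KO here) was delivered first, and lines were grown from single cells. The lines then received a vector with GFP and either ERT2, the control, or Cre-ERT2, and GFP-positive cells were sorted and given 4-OHT, for which the labels name day 1. The 4 groups ERT2_WT, CRE_WT, ERT2_KO and CRE_KO had 3 libraries each. The labels do not assign libraries to lines or cultures, so the p-values measure the spread between these libraries, which may be technical, and the guides and the line grown from 1 cell cannot be told apart.

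Secreted and membrane proteins enter the ER through the Sec61 channel, and chaperones, lectins and disulfide-forming enzymes fold them there, while ER-associated degradation (ERAD) removes those that fail. When unfolded proteins build up, 3 sensors start the UPR. Ern1 (IRE1α) splices Xbp1 mRNA, Atf6 is cut to release a transcription factor, and Eif2ak3 (PERK) phosphorylates eIF2α, which lowers overall translation and favors that of Atf4. XBP1 and ATF6 drive chaperone and ERAD genes, whereas ATF4 and its target Ddit3 (CHOP) drive amino acid supply, redox and death-associated genes, a program that kinases other than PERK, such as the amino acid sensor GCN2, can also start. In the B lineage the XBP1 branch is known above all for the secretory ER of plasma cells.

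The values are log2 normalized expression per gene and library. Gene-level values do not show Xbp1 splicing or any protein, and they are not scaled to gene length, so levels were compared between groups and not between genes. Median log2 values of the 12 libraries lay between 9.06 and 9.11. The SD between replicates, pooled over the groups, ran from 0.014 (Pdia4) to 0.076 (Ero1l) among the members, with a median of 0.034 against 0.037 over all genes. Of the targeted genes, Ikzf3 was lower in the libraries labelled KO (-0.65 ± 0.043, log2 difference ± SE, without Cre), but Ikzf1 mRNA was higher (1.01 ± 0.018), with values of 13.73 to 13.75 in ERT2_WT and 14.74 to 14.76 in ERT2_KO. A gene-level mRNA value does not show whether the reading frame is intact, so KO below is the label of the libraries. The paper reports western blots that showed deletion of the Ikaros factors in lines grown from single cells. The labels do not tie those lines to single libraries. All 8 pre-B markers were in the table, none of 4 erythroid markers was, and of the T cell and myeloid markers the defining Cd3e and Csf1r were not listed, while Lck and Lyz2 were.

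The known binding sites of the UPR factors were looked for in RefSeq promoter windows on GRCm38, from 250 bases before to 50 bases after each start, which were given for 31 of the 36 members (not for Atf6, Derl1, Hyou1, Manf and Sec61a1). The ER stress response element (ERSE), CCAAT and CCACG separated by 9 bases, is the site of ATF6 with NF-Y. On either strand it was present in 16 of 9081 genes of the table with a window (0.176%), and 9 of those 16 were members (29% of the 31). The members were listed as ER and UPR genes and the element is the site of a UPR factor, so this share was no test. The 8 sites of 7 of these genes are shown because their changes are given below, with the fixed bases in capitals (CGTGG and ATTGG where the element lies on the other strand).
Hspa5, chr2:34772020-34772048, + strand: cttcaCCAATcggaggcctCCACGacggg
Hsp90b1, chr10:86705623-86705671, - strand: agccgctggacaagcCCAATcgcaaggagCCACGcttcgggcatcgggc
Hsp90b1, chr10:86705518-86705566, - strand: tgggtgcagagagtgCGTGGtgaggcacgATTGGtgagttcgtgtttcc
Calr, chr8:84847060-84847108, - strand: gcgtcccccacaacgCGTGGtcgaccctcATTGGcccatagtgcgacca
Pdia6, chr12:17266476-17266524, + strand: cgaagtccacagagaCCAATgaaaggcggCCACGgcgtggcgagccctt
Creld2, chr15:88819505-88819553, + strand: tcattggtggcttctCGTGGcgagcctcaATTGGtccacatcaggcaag
Dnajc3, chr14:118937812-118937860, + strand: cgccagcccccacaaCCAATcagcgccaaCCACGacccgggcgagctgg
Canx, chr11:50325785-50325833, - strand: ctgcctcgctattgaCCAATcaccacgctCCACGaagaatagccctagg
The Hspa5 element began 65 bases before the start, and Hsp90b1 had a pair of elements, on opposite strands. Ero1lb and Syvn1 also held an ERSE. Dnajb11 and Herpud1 held the related ERSE-II (ATTGG and CCACG separated by 1 base), which 7 of the 9081 genes had.

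The C/EBP-ATF response element (CARE), TGATG and AA separated by 1 base, is bound by ATF4 with C/EBP partners, and on either strand 247 of the 9081 genes held it (2.72%). Among the members it was found in Herpud1 and in all 3 genes listed as ATF4 or CHOP targets, whose sites are shown because these genes moved apart from the chaperones.
Asns, chr6:7693214-7693243, - strand: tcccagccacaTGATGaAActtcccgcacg
Chac1, chr2:119351034-119351071, + strand: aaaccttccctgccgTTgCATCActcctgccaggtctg
Trib3, chr2:152344028-152344057, - strand: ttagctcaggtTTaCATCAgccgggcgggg
The UPR element core TGACGTGG was in 94 of the 9081 genes (1.04%) and in 0 of the 31 members. These matches describe letters in a window and say nothing of binding in these cells. A CARE in genes listed as ATF4 or CHOP targets was no test either.

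The comparison of KO with WT asked how the ER genes differed between cells given the Ikzf1 and Ikzf3 guides and control cells. In the libraries labelled KO all 9 chaperones and cofactors were lower and all 3 sensors higher, with and without Cre, while the lectins and disulfide enzymes had calls in both directions. Atf4, Trib3 and Chac1 were higher in both comparisons, and Ddit3 and Asns were higher without Cre but did not pass with it. Without Cre (ERT2_KO against ERT2_WT), 22 of the 36 members were lower and 10 higher by limma at an adjusted p under 0.05, whereas 29.3% of all genes were called lower and 29.8% higher. With Cre (CRE_KO against CRE_WT), 19 were lower and 9 higher, beside 28.6% and 30.4% of all genes. The median log2 difference of the members was -0.16 and -0.10 respectively, beside 0.0016 and 0.0016 for all genes. When each library was centred on its median gene, the members' split was 22 lower and 9 higher without Cre and 20 and 9 with it, but that of all genes shifted to 4747 lower and 2866 higher without Cre and 4789 and 2983 with it. In a bulk library a lower level in every cell cannot be told apart from fewer cells at a high level. Overlap between groups is given below only to describe the values, and its share over all genes was not computed.

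**Figure D1:**
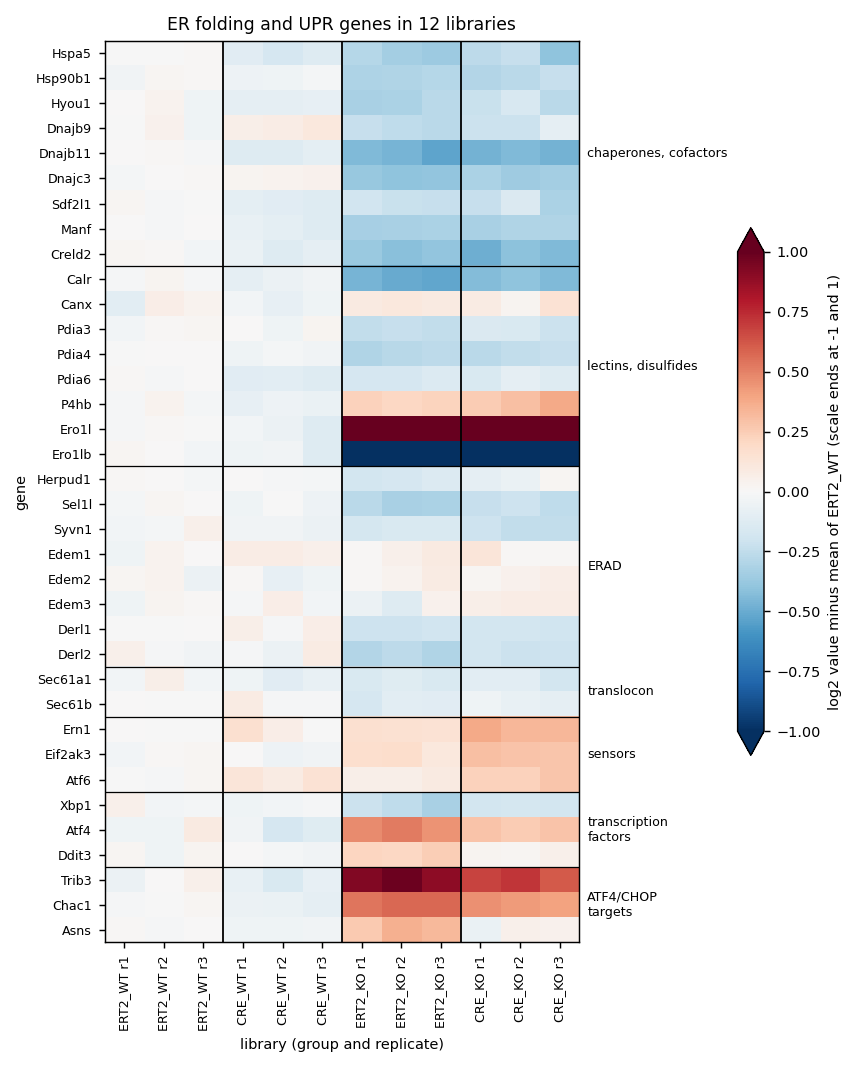
Each row is a member, grouped by role, and each column a library. Color gives the log2 value minus the mean of the 3 ERT2_WT libraries, on a scale that ends at -1 and 1, beyond which Ero1l and Ero1lb lie in the 6 KO libraries. The chaperone rows are blue and the sensor and ATF4 target rows mostly red on the KO side.

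All 9 chaperones and cofactors were lower in the libraries labelled KO, by 0.22 to 0.48 on the log2 scale without Cre and by 0.12 to 0.37 with it. Hspa5 (BiP), the ER Hsp70 that also holds the sensors inactive, had log2 values of 14.06, 14.05 and 14.07 in ERT2_WT and 13.95, 13.90 and 13.93 in CRE_WT. The libraries labelled KO had 13.78, 13.72 and 13.69 in ERT2_KO and 13.80, 13.83 and 13.66 in CRE_KO, all below the WT libraries. The difference was -0.33 ± 0.038 without Cre (0.796-fold, adjusted p = 8.57e-06, limma) and -0.16 ± 0.038 with Cre (adjusted p = 0.00257), where replicate 3 of CRE_KO lay lowest.

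The J-domain partners of BiP were lower as well. Dnajb11 (ERdj3), which hands clients to BiP, had 11.66, 11.67 and 11.65 in ERT2_WT and 11.52, 11.53 and 11.56 in CRE_WT. It had 11.22, 11.19 and 11.13 in ERT2_KO and 11.18, 11.21 and 11.18 in CRE_KO, with no overlap between KO and WT. The difference was -0.48 ± 0.025 and -0.34 ± 0.025 (adjusted p = 3.82e-09 and 8.89e-08). Dnajc3 (p58IPK), another J-domain partner, had 11.41, 11.43 and 11.44 in ERT2_WT and 11.45, 11.46 and 11.47 in CRE_WT. In the libraries labelled KO it had 11.05, 11.02 and 11.03 in ERT2_KO and 11.11, 11.07 and 11.08 in CRE_KO, again apart from WT. The log2 difference was -0.39 without Cre and -0.37 with Cre (SE 0.020 in each).

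Creld2, an ER stress-inducible protein, had 9.70, 9.69 and 9.65 in ERT2_WT and 9.61, 9.55 and 9.59 in CRE_WT. Libraries labelled KO had 9.30, 9.26 and 9.29 in ERT2_KO and 9.19, 9.27 and 9.24 in CRE_KO, and the groups did not overlap (differences -0.39 ± 0.029 and -0.35 ± 0.029). Hsp90b1 (Grp94), the ER Hsp90, differed by -0.30 and -0.23. For Hyou1, the nucleotide exchange factor of BiP, the log2 values were 12.41, 12.44 and 12.36 in ERT2_WT and 12.31, 12.31 and 12.32 in CRE_WT. They were 12.08, 12.09 and 12.13 in ERT2_KO and 12.18, 12.24 and 12.13 in CRE_KO, lower in each KO library than in any WT library, with differences of -0.30 and -0.13. Manf, a BiP-binding protein, had 11.55, 11.54 and 11.55 in ERT2_WT and 11.47, 11.45 and 11.42 in CRE_WT. It had 11.22, 11.22 and 11.23 in ERT2_KO and 11.23, 11.24 and 11.25 in CRE_KO and was lower by 0.32 and 0.21 on the log2 scale. The remaining pair, Dnajb9 (ERdj4) and Sdf2l1, differed by -0.25 and -0.22 without Cre.

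The lectins and disulfide enzymes went in opposite directions. The largest changes of the whole list belonged to the Ero1 paralogs, the oxidases that recharge protein disulfide isomerase. Ero1l (Ero1α) had 11.30, 11.33 and 11.31 in ERT2_WT and 11.28, 11.26 and 11.19 in CRE_WT. It had 13.15, 13.14 and 13.30 in ERT2_KO and 12.76, 12.74 and 12.94 in CRE_KO, so each KO library lay more than 1 log2 unit above every WT library. The difference was 1.88 ± 0.053 without Cre (3.68-fold, adjusted p = 1.03e-11) and 1.57 ± 0.053 with Cre (2.96-fold). Ero1lb (Ero1β) had 10.90, 10.89 and 10.86 in ERT2_WT and 10.85, 10.85 and 10.76 in CRE_WT. It had 9.68, 9.68 and 9.78 in ERT2_KO and 9.52, 9.61 and 9.50 in CRE_KO, and was 0.443-fold of WT without Cre (-1.17 ± 0.038, adjusted p = 4.46e-11) and 0.413-fold with Cre (-1.28 ± 0.038). Ero1lb is among the genes with an ERSE, and Dnajb9, Sdf2l1, Pdia3 and Pdia4, whose windows held none, were lower as well. The part of the element in these differences was not tested.

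Calr, the soluble lectin that retains glycoproteins for folding, had 14.20, 14.24 and 14.20 in ERT2_WT and 14.12, 14.15 and 14.18 in CRE_WT. The libraries labelled KO had 13.75, 13.71 and 13.70 in ERT2_KO and 13.78, 13.81 and 13.77 in CRE_KO, all below WT, for differences of -0.50 ± 0.022 (adjusted p = 8.34e-10) and -0.37 ± 0.022. Its membrane-bound counterpart Canx differed by 0.094 ± 0.040 without Cre (adjusted p = 0.0588) and was higher by 0.14 with Cre (adjusted p = 0.0109). Both genes hold an ERSE in their window. Canx thus passed the test with Cre and missed it without Cre, and the interaction for it was 0.041 ± 0.056 (adjusted p = 0.788).

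P4hb, the classical protein disulfide isomerase, had 13.45, 13.50 and 13.44 in ERT2_WT and 13.38, 13.41 and 13.39 in CRE_WT. It had 13.69, 13.67 and 13.69 in ERT2_KO and 13.71, 13.77 and 13.84 in CRE_KO, with every KO library above every WT library, and differences of 0.22 ± 0.028 (adjusted p = 2.15e-05) and 0.38 ± 0.028 (adjusted p = 1.42e-07). The other disulfide isomerases were lower or did not pass. Pdia3 (ERp57), the partner of the lectins, differed by -0.24 and -0.17, and Pdia4 by -0.28 and -0.22. Pdia6 had 12.80, 12.78 and 12.79 in ERT2_WT and 12.68, 12.68 and 12.66 in CRE_WT. With 12.62, 12.62 and 12.65 in ERT2_KO and 12.64, 12.70 and 12.66 in CRE_KO, the KO group was lower without Cre (-0.16 ± 0.020), while the Cre groups overlapped (-0.010 ± 0.020, adjusted p = 0.694). Reads of Pdia3, Pdia6, Manf, Ddit3, Derl2 and Syvn1 can overlap those of protein-coding neighbours, and the strand setting of the counting is not given in the sources used here.

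**Figure D2:**
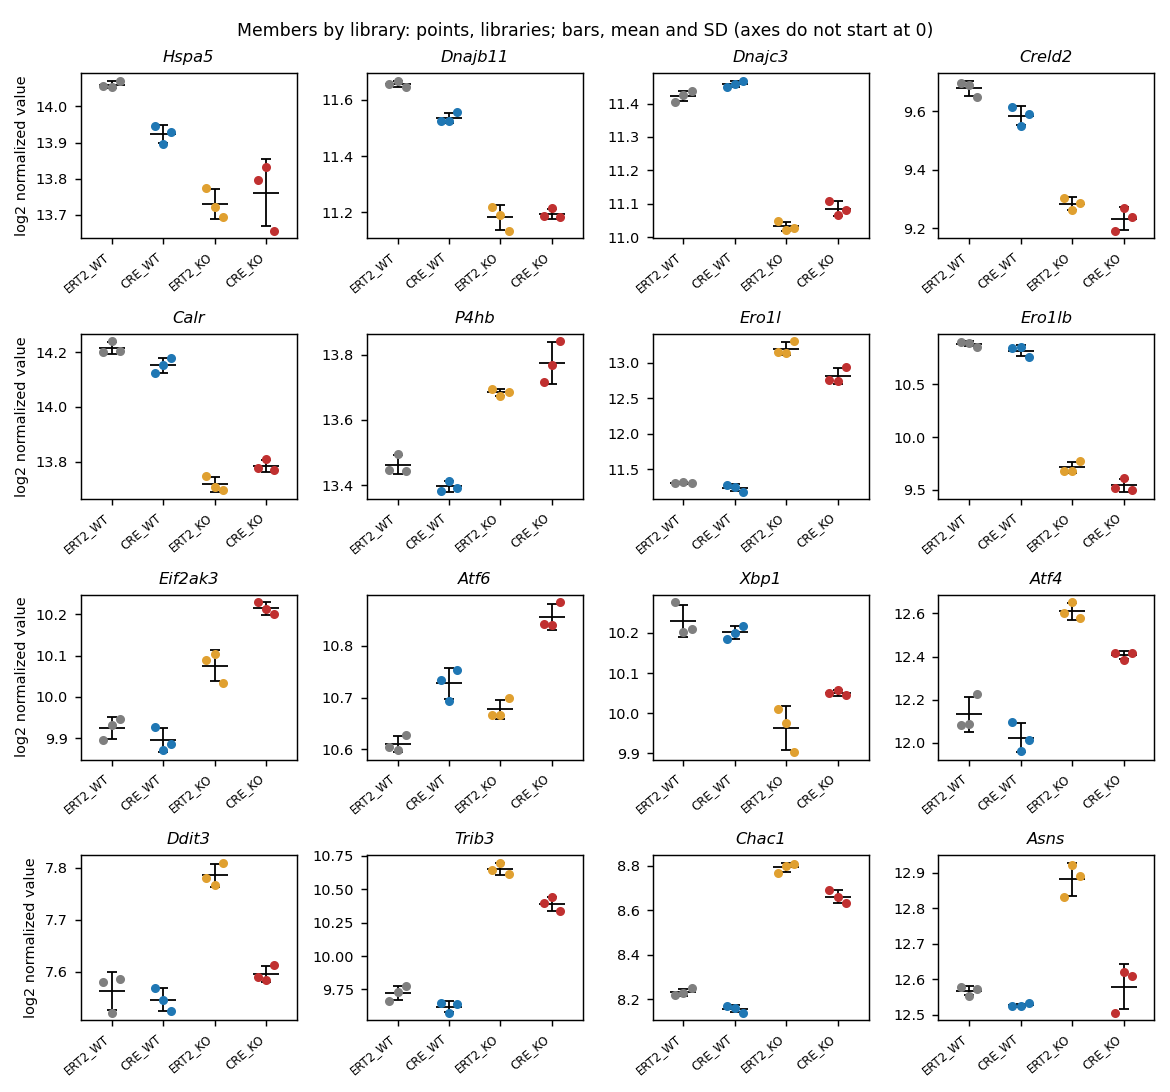
Log2 normalized values (vertical axis, not from 0) of 16 members in the 4 groups (horizontal axis); points are libraries and bars the mean and SD of 3. In the panels of Hspa5, Dnajb11, Dnajc3, Creld2, Calr, Ero1lb and Xbp1 all 6 KO libraries lie below the 6 WT libraries, and in those of P4hb, Ero1l, Eif2ak3, Atf4, Trib3 and Chac1 all lie above them.

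Of the 8 ERAD members, 5 were lower without Cre and 4 with Cre, and none was called higher. Sel1l and Syvn1 (Hrd1), which form the central ubiquitin ligase complex, differed by -0.30 and -0.16 without Cre and by -0.20 and -0.19 with it. The derlins Derl1 and Derl2, which help clients out of the ER, differed by -0.20 and -0.29 without Cre. The mannosidase-like proteins Edem1, Edem2 and Edem3, which mark glycoproteins for disposal, did not pass in either comparison, with differences from -0.047 to 0.080. Herpud1, a scaffold of the ligase, had 11.26, 11.25 and 11.23 in ERT2_WT and 11.25, 11.23 and 11.23 in CRE_WT. Its values were 11.06, 11.07 and 11.11 in ERT2_KO and 11.16, 11.17 and 11.26 in CRE_KO, below WT without Cre (-0.16 ± 0.028, adjusted p = 0.000289) and overlapping with Cre (-0.037 ± 0.028, adjusted p = 0.29). The Sec61 subunits Sec61a1 and Sec61b were lower without Cre (-0.14 and -0.13), and Sec61b alone passed with Cre (-0.089, against -0.058 for Sec61a1, adjusted p = 0.12), a call lost without replicate 1 of CRE_WT.

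The mRNAs of all 3 sensors were higher in the libraries labelled KO, in contrast to the chaperones. Eif2ak3 (PERK) had 9.90, 9.93 and 9.95 in ERT2_WT and 9.93, 9.87 and 9.89 in CRE_WT. It had 10.09, 10.10 and 10.03 in ERT2_KO and 10.23, 10.21 and 10.20 in CRE_KO, without overlap, and was higher by 0.15 without Cre (adjusted p = 0.000357) and 0.32 with Cre (adjusted p = 4.41e-07). Ern1 (IRE1α) had 7.99, 7.97 and 7.98 in ERT2_WT and 8.14, 8.05 and 7.98 in CRE_WT. With 8.14, 8.13 and 8.12 in ERT2_KO and 8.36, 8.32 and 8.31 in CRE_KO, it was higher by 0.15 and 0.27 (adjusted p = 0.00288 and 2.66e-05), though the CRE_WT library with the highest value reached the level of ERT2_KO. Atf6 had 10.60, 10.60 and 10.63 in ERT2_WT and 10.73, 10.69 and 10.75 in CRE_WT. It had 10.67, 10.67 and 10.70 in ERT2_KO and 10.84, 10.84 and 10.88 in CRE_KO, and its difference was 0.067 ± 0.024 without Cre (adjusted p = 0.0289) and 0.13 ± 0.024 with Cre (adjusted p = 0.000499). The call for Atf6 without Cre was lost when libraries were centred on their median gene and when replicate 1 or 2 of ERT2_WT or replicate 3 of ERT2_KO was left out.

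The transcription factors of the UPR split in the same way. Xbp1 had 10.28, 10.20 and 10.21 in ERT2_WT and 10.18, 10.20 and 10.22 in CRE_WT. It had 10.01, 9.98 and 9.90 in ERT2_KO and 10.05, 10.06 and 10.04 in CRE_KO, all below WT, and was lower by 0.27 without Cre (adjusted p = 7.88e-06) and 0.15 with Cre (adjusted p = 0.000937). Atf4 had 12.08, 12.09 and 12.22 in ERT2_WT and 12.10, 11.96 and 12.01 in CRE_WT. It had 12.60, 12.65 and 12.58 in ERT2_KO and 12.42, 12.39 and 12.42 in CRE_KO, all above WT, and was 1.39-fold of WT without Cre (0.48 ± 0.041, adjusted p = 5.61e-07) and 1.3-fold with Cre (0.38 ± 0.041, adjusted p = 4.41e-06). Ddit3 (CHOP) had 7.58, 7.52 and 7.59 in ERT2_WT and 7.57, 7.54 and 7.53 in CRE_WT. It had 7.78, 7.77 and 7.81 in ERT2_KO and 7.59, 7.58 and 7.61 in CRE_KO, and was higher by 0.22 without Cre (adjusted p = 1.29e-05), but differed by only 0.050 ± 0.027 with Cre (adjusted p = 0.131).

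All 3 ATF4 and CHOP targets of the list were higher without Cre. Trib3, a pseudokinase induced by ATF4 and CHOP, had 9.67, 9.73 and 9.77 in ERT2_WT and 9.65, 9.57 and 9.64 in CRE_WT. It had 10.64, 10.70 and 10.61 in ERT2_KO and 10.40, 10.44 and 10.34 in CRE_KO, 1.91-fold of WT without Cre (0.93 ± 0.037, adjusted p = 3.18e-10) and 1.7-fold with Cre (0.77 ± 0.037). Chac1, which degrades glutathione, had 8.22, 8.23 and 8.25 in ERT2_WT and 8.17, 8.16 and 8.14 in CRE_WT. With 8.77, 8.80 and 8.81 in ERT2_KO and 8.69, 8.66 and 8.63 in CRE_KO, it too was higher in each KO library, by 0.56 and 0.50. Asns (asparagine synthetase) had 12.58, 12.55 and 12.57 in ERT2_WT and 12.52, 12.53 and 12.53 in CRE_WT. It had 12.83, 12.92 and 12.89 in ERT2_KO and 12.50, 12.62 and 12.61 in CRE_KO, which placed ERT2_KO above all other libraries and left CRE_KO overlapping CRE_WT. It was higher by 0.31 without Cre (adjusted p = 2.01e-06) and differed by 0.051 ± 0.031 with Cre (adjusted p = 0.176), a difference that passed when replicate 1 of CRE_KO, its lowest library, was left out.

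A list of 23 further ATF4 target genes in the table (24 listed) moved the same way. It was chosen with earlier results of these data known, so it gives no independent support. Without Cre 21 of the 23 were higher in the libraries labelled KO, 2 were lower (Cebpb, -0.59, and Slc7a11, -0.062, the latter named after its value was seen), and the median was 0.43. With Cre 19 were higher and 0 lower, and the median was 0.35. The largest rises were those of the lipoprotein receptor Vldlr (2.89 ± 0.14 without and 3.21 ± 0.14 with Cre), Stc2 (1.79 ± 0.033 and 1.68 ± 0.033) and the alanine aminotransferase Gpt2 (1.29 ± 0.078 and 1.05 ± 0.078). Of 16 other UPR regulators 7 were higher and 5 lower without Cre (median 0.064) and 6 and 5 with Cre (median 0.026). Among them Eif2ak4, which encodes GCN2, had the largest rise (0.66 and 0.68) and was singled out after its values were seen. The largest falls among these regulators were -0.30 and -0.27. A part of Eif2ak4 in the ATF4 target differences was not tested. The window of 5 of 21 of these further targets held a CARE (23.8%). Of the 243 genes with a CARE that were not members, 34.2% were called higher without Cre, beside 30.6% of all genes with a window. With Cre 33.3% of them were higher and 28.8% lower, beside 31.5% and 29.8% of all genes with a window.

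The other ER gene lists had calls in both directions. Of the 20 further foldases and cochaperones 6 were lower and 7 higher without Cre (median 0.028), of the 20 targeting, translocation and signal peptidase genes 5 and 7 (median -0.0037), and of the 16 COPII and ER exit genes 4 and 6 (median 0.010). Further ERAD genes were lower in 10 of 18 cases and higher in 2 (median -0.11), and N-glycan transfer and trimming genes lower in 6 of 13 and higher in 1 (median -0.11). With Cre the numbers lower and higher were 6 and 7, 4 and 9, 4 and 5, 9 and 1, and 2 and 2 in the same order. The 3 largest falls without Cre were those of Cebpb (above), the folding sensor glucosyltransferase Uggt1 (-0.41 ± 0.019) and the COPII coat subunit Sec23b (-0.39 ± 0.034), and with Cre those of the cargo receptor Surf4 (-0.34 ± 0.022), Uggt1 (-0.33 ± 0.019) and Sec23b (-0.32 ± 0.034). Of 10 cytosolic chaperones 4 were lower and 4 higher without Cre.

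**Figure D3:**
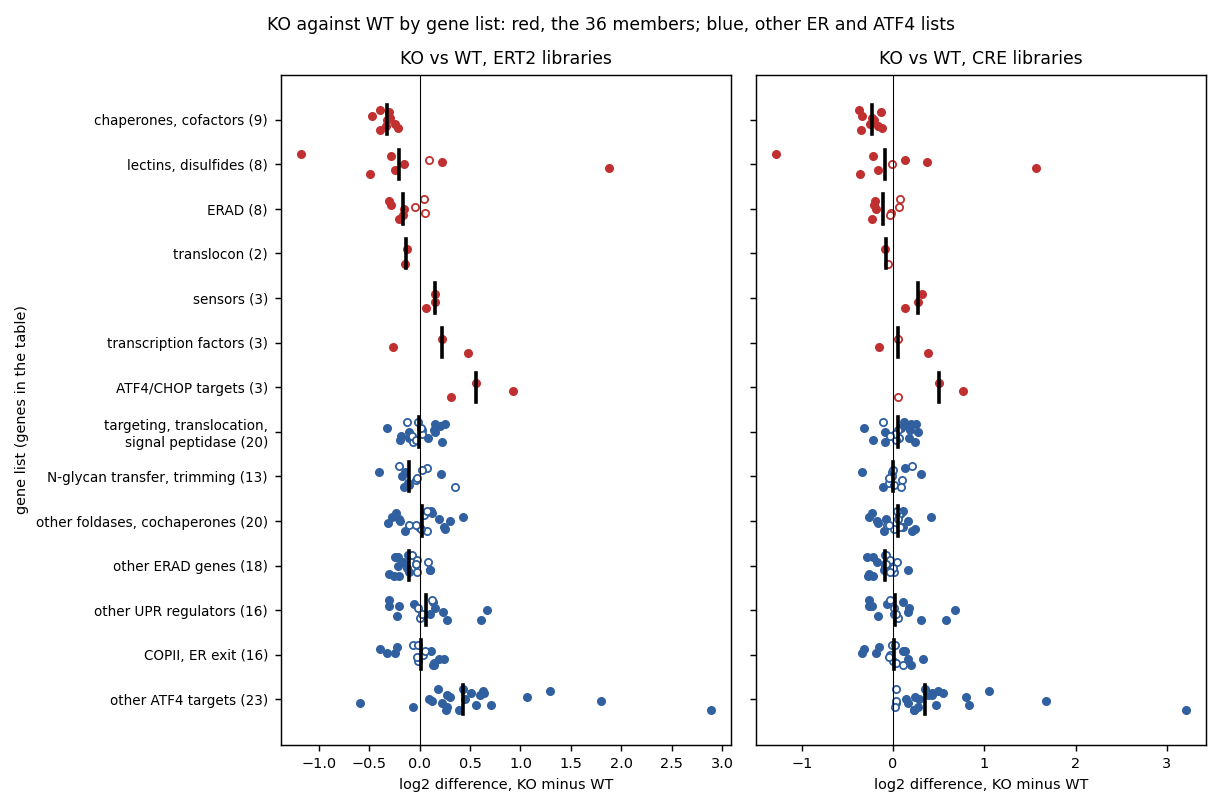
Log2 difference between KO and WT (horizontal axis) for each gene, by list (vertical axis), without Cre on the left and with Cre on the right. Red points are the 36 members and blue points other lists, filled where the adjusted p was under 0.05, and black lines are medians. The chaperones lie entirely to the left of 0 in both panels, and nearly all ATF4 targets to the right.

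Among the 9 members with an ERSE, 8 were lower without Cre (median -0.33) and 7 with Cre (median -0.23), the exceptions being Canx in both and Pdia6 with Cre. Dnajb9, Sdf2l1, Pdia3 and Pdia4, whose windows held no ERSE, were lower in both as well, while P4hb and Ero1l, also without it, were higher. The 7 genes with an ERSE that were not members had 1 lower and 2 higher without Cre (median 0.032), and of all 9081 genes with a window 30.7% were lower. Markers of other states moved alongside. Of 8 pre-B markers 5 were lower in KO without Cre and 1 was higher, from -0.79 to 0.32 with a median of -0.16. Of 6 plasma cell markers in the table (7 listed) 3 were lower and 2 higher, from -0.77 to 0.41 with a median of -0.034. Their summed level was 14.05 to 14.08 in ERT2_WT and 13.64 to 13.65 in ERT2_KO (log2). Such a sum weighs most the markers with the highest values and is not scaled to gene length. Of the 6 myeloid markers Lyz2 was higher (0.99), Itgam lower (-0.15) and the other 4 not listed. The summed level of Lyz2 and Itgam was 7.604 to 7.616 in ERT2_WT and 8.45 to 8.53 in ERT2_KO, a rise that came from Lyz2 alone. Of the 6 T cell markers only Lck was listed (-1.45). With Cre 6 of 8 pre-B markers were lower in KO and 1 higher, from -0.76 to 0.34 with a median of -0.23. Of 6 plasma cell markers 2 were lower and 2 higher, from -0.52 to 0.43 with a median of -0.037. Lyz2 differed by 1.23, Itgam by -0.18 and Lck by -1.93 with Cre. The part of these shifts in the ER gene differences was not tested.

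The comparison of CRE with ERT2 asked how these genes changed with Cre, which excises exon 3 of Ctnnb1, within each background. CRE libraries have active Cre as well as stabilized β-catenin, and no library had Cre without the floxed allele. The effects of Cre and of β-catenin thus cannot be told apart. Ctnnb1 mRNA differed by 0.065 ± 0.025 in WT (adjusted p = 0.128, limma) and by 0.13 ± 0.025 in KO (adjusted p = 0.00407). A gene-level value does not show whether exon 3 was excised. In WT cells the changes were small. Here 1 member was higher and 4 were lower (CRE_WT against ERT2_WT), where 5.93% of all genes were called higher and 5.95% lower, and the median of the members was -0.039. Atf6 was higher by 0.12 (SE 0.024, adjusted p = 0.00644), its 3 CRE_WT libraries all above the ERT2_WT libraries. The lower members were Hspa5 (-0.14 ± 0.038, adjusted p = 0.0359), Dnajb11 (-0.12 ± 0.025, adjusted p = 0.00608), Pdia6 (-0.11 ± 0.020, adjusted p = 0.00269) and Manf (-0.10 ± 0.020, adjusted p = 0.00643), all chaperones or disulfide enzymes. The groups did not overlap for these 4, but neither did they for members that were not called, such as Hyou1, Calr and Trib3. Hspa5 missed the threshold in 8 of 19 alternatives, among them the omission of any ERT2_WT or CRE_WT library. Lower members numbered 7 when libraries were centred on their median gene or when replicate 2 of CRE_KO was left out. Xbp1 (-0.029 ± 0.031), Atf4 (-0.11 ± 0.041, adjusted p = 0.124) and Ddit3 (-0.016 ± 0.027) did not pass.

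In KO cells Cre went with higher sensor mRNA and a lower ATF4 branch (CRE_KO against ERT2_KO). Of the members 4 were higher and 7 lower, where 7.27% of all genes were higher and 5.33% lower, and the median was 0.030. All 3 sensors rose, Ern1 by 0.20 (SE 0.036, adjusted p = 0.00291), Atf6 by 0.18 (adjusted p = 0.000292) and Eif2ak3 by 0.14 (adjusted p = 0.00466). The fourth was Herpud1 (0.12 ± 0.028, adjusted p = 0.0163). It was not called when replicate 1 or 2 of ERT2_KO was left out or when only the 6 libraries compared were fitted.

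The 7 lower members were the Ero1 paralogs and the whole ATF4 branch of the list. Asns fell by 0.30 (SE 0.031, adjusted p = 3.06e-05), to values that overlap those of the WT libraries. Trib3 fell by 0.26 (adjusted p = 0.000487), Atf4 by 0.20 (adjusted p = 0.00608), Ddit3 by 0.19 (adjusted p = 0.000485) and Chac1 by 0.13 (adjusted p = 0.00477). Trib3, Atf4 and Chac1 stayed above every WT library. Ero1l fell by 0.38 (adjusted p = 0.000381) and Ero1lb by 0.17 (adjusted p = 0.0122), the latter from an already lower level. The call for Ero1lb was lost when replicate 3 of ERT2_KO was left out or when only the 6 libraries compared were fitted. None of the 9 chaperones passed in this comparison, with differences between -0.051 and 0.085, and neither did Xbp1 (0.088 ± 0.031, adjusted p = 0.0881). The ERT2_KO libraries enter both this comparison and that of KO with WT, so a high value of these 3 libraries lowers the difference between CRE_KO and ERT2_KO and raises that between ERT2_KO and ERT2_WT.

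The further ATF4 targets followed the same pattern, 15 of 23 lower and 1 higher in KO (median -0.13) and 7 lower and 0 higher in WT (median -0.060). The largest falls in KO were those of the transsulfuration enzyme Cth (-0.27 ± 0.044), the mitochondrial folate enzyme Mthfd2 (-0.24 ± 0.022) and the amino acid transporter Slc7a5 (-0.23 ± 0.018), and the rise was that of Vldlr (0.65 ± 0.14). The count in KO was 9 when replicate 2 of ERT2_KO or replicate 1 of CRE_KO was left out. In WT the lower ones included Cebpb (-0.61 ± 0.037), a gene of low level here with a mean log2 value of 5.36, and the arginine transporter Slc7a1 (-0.16 ± 0.033), and outside the ATF4 list the glucosidase Mogs (-0.21 ± 0.034). Higher in WT were Txndc12 (0.13), Tmx4 (0.13) and the ERAD conjugating enzyme Ube2j1 (0.10), and in KO Selenok (0.17) and Cnpy2 (0.16). Prdm1 (Blimp-1), the plasma cell regulator, was higher with Cre in both backgrounds (0.66 and 0.64), beside 3 of 6 plasma cell markers higher and 1 lower in each. Their summed log2 level was 14.11 to 14.12 in CRE_WT and 13.74 to 13.82 in CRE_KO, whereas 5 of 8 pre-B markers were lower with Cre in WT and 4 in KO, and 1 was higher in each. Lck was higher by 0.81 in WT and 0.33 in KO, and Lyz2 by 0.21 in KO. In the interaction Lck was called at -0.48 and Lyz2 at 0.24. The part of these shifts in the changes of the ER genes was not tested.

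**Figure D4:**
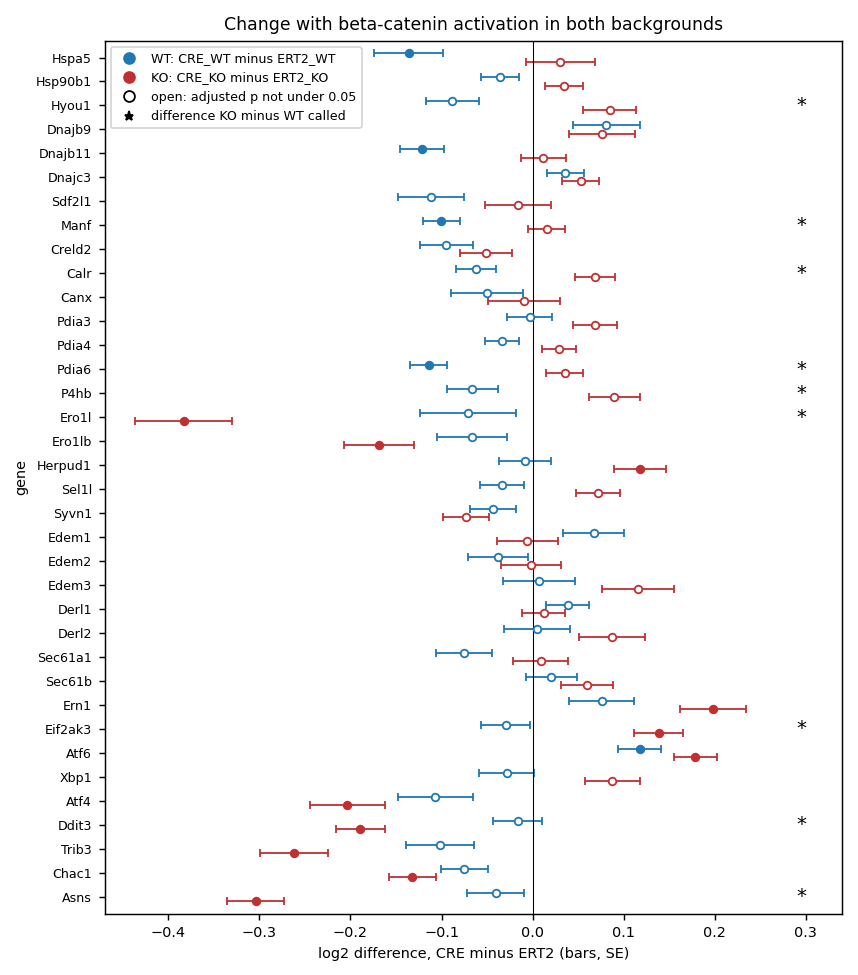
Log2 difference between CRE and ERT2 (horizontal axis, bars are SE) for the 36 members (vertical axis), in WT (blue) and KO (red). Filled points passed the test, and asterisks mark the 9 members whose KO and WT differences were themselves called different. The sensors lie to the right and Ero1l and the ATF4 genes to the left in KO, while the WT points stay within 0.14 of 0.

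The difference between the backgrounds was tested as an interaction (the CRE effect in KO minus that in WT). It was called for 9 members, 6 higher and 3 lower, where 2.71% and 1.82% of all genes were called. Pdia6 (0.15 ± 0.029, adjusted p = 0.0108) was lower with Cre in WT and differed by 0.035 in KO. Asns (-0.26 ± 0.044, adjusted p = 0.00447) fell in KO and differed by -0.041 in WT. Those were the calls that stood in all 18 alternative fits at an adjusted p under 0.05. Under 0.01, Asns passed and Pdia6 did not. The others, Hyou1, Eif2ak3, P4hb, Calr and Manf on the higher side and Ero1l and Ddit3 on the lower, had adjusted p between 0.023 and 0.0482. Their calls depended on single libraries. The number higher was between 1 and 4 when any library but replicate 3 of CRE_KO was left out and 2 after quantile normalization, where 3 remained lower, so that the balance of higher and lower calls turned. For Atf4, Trib3 and Chac1 the interaction was not called (-0.096, -0.16 and -0.057), so a different effect of Cre in the backgrounds was not shown for them. The same holds for Ern1 (0.12) and Atf6 (0.061), which rose in KO. Within the other ER and UPR gene lists, Cebpb (0.62), Rpn1 (0.16) and Slc7a11 (0.089) had the largest positive calls and Cth (-0.26), Ube2j1 (-0.20) and Psph (-0.17) the largest negative ones. With 3 libraries a group, an exact permutation test of 1 gene cannot go below p = 0.1, so single members were judged by the model across all genes.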

How the data were processed

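The authors processed the reads with Salmon 1.4.0, STAR 2.7.6 and DESeq2 1.30.1 on mm10/GRCm38, per the labels, and deposited 1 table of log2 normalized values per gene and library. How these were transformed, the gene filter and the strand setting are not given in the sources used here, and without counts the depth is unknown. The table also holds the authors' own comparisons (fold changes and p-values), which were not used.

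The values were fitted in limma 3.58.1 (R 4.3.3) with 4 group means, eBayes with a variance trend and no covariate. Contrasts were CRE minus ERT2 in each background, KO minus WT without and with Cre, and their interaction. P-values were adjusted over all 12151 genes (Benjamini-Hochberg) and called under 0.05. The fit was tested on simulated data. Members and lists were chosen with earlier results of these data known. Values per library are given for Hspa5, Xbp1, Atf4, Ddit3 and the 5 largest called rises and falls per contrast, and up to 3 each for the other lists. Replicate numbers did not pair the libraries: 2 of 18 same-numbered pairs deviated together with r over 0.1 (range -0.091 to 0.31). Differently numbered pairs went further: replicate 2 of CRE_WT had r = 0.356 with replicate 3 of CRE_KO and -0.355 with replicate 1. Some CRE libraries thus deviated together across backgrounds, which the fit did not model. Promoter windows are RefSeq (GRCm38.p6), matched by Ensembl ID or symbol, and each motif was searched on both strands. Alternatives were median centring, quantile normalization, a mean of at least 8, a pseudocount of 1 on unlogged values, only the 6 libraries compared, a replicate block, no variance trend, adjusted p under 0.01 and each library left out.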

Additional observations from a re-analysis of the deposited data

Results flagged for a closer look

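For 9 members the change with Cre differed between KO and WT by the interaction test (limma, adjusted over all genes, 3 libraries a group). The log2 difference of differences, KO minus WT, was 0.17 for Hyou1, 0.17 for Eif2ak3, 0.16 for P4hb, 0.15 for Pdia6, 0.13 for Calr and 0.12 for Manf. It was -0.31 for Ero1l, -0.26 for Asns and -0.17 for Ddit3. The underlying changes with Cre in WT and KO were -0.088 and 0.085 for Hyou1, -0.063 and 0.068 for Calr, -0.071 and -0.38 for Ero1l and -0.016 and -0.19 for Ddit3. Pdia6 and Asns kept the call at an adjusted p under 0.05 in all 18 alternative fits, whereas Manf and P4hb kept it in 4 of 18, Hyou1 in 7, Calr in 8, Ero1l in 9, Eif2ak3 in 10 and Ddit3 in 12 of 17. Asns alone also passed an adjusted p under 0.01.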

How the results depend on the processing

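No called difference of a member changed sign under any alternative. Of the named differences that were not called, Hspa5 with Cre in KO was -0.0048 without replicate 2 of CRE_KO (0.030 reported) and Ddit3 in KO against WT with Cre was -0.023 with quantile normalization (0.050 reported). Uncalled differences of other members could change sign as well. That of Pdia6 in KO against WT with Cre did so with quantile normalization and without replicate 1 of CRE_KO. Counts of members lower or higher in KO against WT stayed within 1.5 times the reported ones under every alternative, including each library left out (22 to 23 lower and 9 to 11 higher without Cre, 18 to 20 and 9 to 10 with it). So did the 14 and 13 chaperones and folding enzymes lower and the 21 and 19 further ATF4 targets higher. Further ATF4 targets lower with Cre in KO numbered 8 at an adjusted p under 0.01 (15 reported). These sublist counts were added after seeing the data.

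The median over members (spread between replicates 0.012) moved by more than that spread as follows. Without Cre the KO difference was -0.19 with median centring and -0.14 with quantile normalization. With Cre it was -0.14 with median centring, -0.12 for genes with a mean of at least 8, and between -0.12 and -0.078 with each library left out (lowest without replicate 2 of CRE_KO, and -0.085 and -0.078 without replicate 1 of CRE_WT and replicate 3 of CRE_KO). With quantile normalization the change with Cre in KO was 0.017 and the interaction 0.049, and the interaction ranged from 0.052 to 0.077 with each library left out.

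For Cre in WT, lower members numbered 7 with median centring and 3 to 7 with each library left out, 7 without replicate 2 of CRE_KO. Interaction counts moved too. Higher members numbered 2 with quantile normalization, 0 at an adjusted p under 0.01 and 1 to 6 with each library left out, and lower members 1 at an adjusted p under 0.01 and 1 to 3 with each library left out (1 without replicate 2 of ERT2_WT, replicate 1 or 2 of CRE_WT, replicate 3 of ERT2_KO or replicate 2 of CRE_KO). With the replicate block 1 member was higher and 3 lower in the interaction, and no other member count differed from that without the block.

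The table's depth is unknown, so no counting error can be given. The cause of these shifts was not tested.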
